A study of Rattus norvegicus with 120 samples.

Results

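The 7 genes described here, Rbp4, Retsat, Dhrs3, Aldh1a1, Aldh1a2, Cyp26b1 and Rarb, span the retinoid (vitamin A) pathway from transport to receptor. They were taken by gene symbol from tables of 30560 rat genes, and all 7 were found. They were proposed with results of these data already known, so their adjusted p-values below describe where each gene fell in a test of all genes and are not independent support.

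The libraries came from kidney and heart of ZSF1 rats aged 30 weeks, a rat model of obesity, hypertension and kidney disease in which the obese animals lack a working leptin receptor. Study A held lean rats on vehicle, obese rats on vehicle and obese rats on BT2, an inhibitor of the kinase BDK, which restrains the breakdown of branched-chain amino acids. Study B held obese rats on vehicle, obese rats on empagliflozin, an inhibitor of the kidney glucose transporter SGLT2, and obese rats on BT2 with empagliflozin, called the combination below. Each of the 12 groups (6 per organ) had 10 libraries of poly-A RNA, and every compound was given in the chow. The labels say only kidney; the design text names both cortex and the entire organ without saying which rats gave which.

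Retinol travels in blood bound to the carrier retinol-binding protein 4, which in kidney is taken up from the filtrate by proximal tubule cells. Inside cells, retinol is stored as esters, saturated by retinol saturase, or oxidised to retinaldehyde, a step that the reductase DHRS3 reverses. Retinaldehyde dehydrogenases of the ALDH1A family then make retinoic acid, the ligand of the RAR nuclear receptors, and CYP26 enzymes break it down. Rarb, Cyp26 genes and Dhrs3 are textbook targets of retinoic acid, so they belong both to the machinery and to its readout.

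The promoters of 3 of these genes are shown because Rarb and Cyp26b1 are known retinoic acid targets and, like Retsat, were called in comparisons described below. Each is 1 window of the RefSeq table for build GRCr8, 250 bases before to 50 bases after the annotated start, on the coding strand, 5′ to 3′. All 7 genes had an entry. The windows lie at chr15:11336142-11336441 (plus strand, Rarb), chr4:118616127-118616426 (minus strand, Cyp26b1) and chr4:106211209-106211508 (plus strand, Retsat). Capitals mark every match to a receptor hexamer (AGGTCA and then AGTTCA, followed by GGGTCA and last by GGTTCA), searched on both strands, and to pairs of them in the same direction with 5, 2 or 1 bases between.
Rarb: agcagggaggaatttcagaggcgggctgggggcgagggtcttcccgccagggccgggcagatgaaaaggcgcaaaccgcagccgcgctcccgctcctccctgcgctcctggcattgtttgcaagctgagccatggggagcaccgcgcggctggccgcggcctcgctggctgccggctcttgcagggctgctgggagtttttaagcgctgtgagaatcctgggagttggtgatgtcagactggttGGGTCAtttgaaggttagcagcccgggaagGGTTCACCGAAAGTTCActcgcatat
Cyp26b1: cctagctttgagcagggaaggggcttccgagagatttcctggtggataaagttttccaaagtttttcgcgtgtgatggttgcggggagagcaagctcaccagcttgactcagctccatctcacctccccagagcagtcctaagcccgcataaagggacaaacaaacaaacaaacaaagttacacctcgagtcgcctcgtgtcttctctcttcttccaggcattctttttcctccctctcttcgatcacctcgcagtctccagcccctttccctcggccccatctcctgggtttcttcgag
Retsat: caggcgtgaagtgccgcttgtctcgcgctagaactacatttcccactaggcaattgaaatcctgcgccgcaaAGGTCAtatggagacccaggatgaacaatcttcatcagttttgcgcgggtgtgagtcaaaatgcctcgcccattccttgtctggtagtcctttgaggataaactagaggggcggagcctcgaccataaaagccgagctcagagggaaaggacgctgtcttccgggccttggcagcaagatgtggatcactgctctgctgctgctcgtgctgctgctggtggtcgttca
The Rarb window held a pair spaced by 5 bases, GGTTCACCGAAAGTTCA, at bases +25 to +41 from the start on the plus strand, and a single hexamer, GGGTCA, at bases -6 to -1. Such a pair was found in 128 of 33469 promoter windows of the same length (0.382%), while a single hexamer was found in 44.4% of them. Retsat held the single hexamer AGGTCA at bases -178 to -173, and Aldh1a1 held one on the minus strand at bases -65 to -60. The other windows, those of Cyp26b1, Rbp4, Aldh1a2 and Dhrs3, held none of these letters, which says only that they are not in this window.

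Total counts per library, in units of 1000000, ran from 6.735 to 23.58 in heart, and the 58 deeper kidney libraries held 4.599 to 54.86 (median 10.33). The kidney libraries of BT2 replicate 2 (22773 counts) and study B vehicle replicate 8 (776172 counts) were too shallow for a level and were left out of means but not of tests. The kidney lean replicate 8 held transcripts of skeletal and heart muscle (Myh4 at 10810 CPM against a kidney median of 9.057), 1 kidney combination library held heart muscle transcripts and 3 held liver transcripts (Alb at 95.86 to 834 CPM against a median of 0.3777), and 11 heart libraries stood apart in atrial or skeletal muscle transcripts. The heart lean replicate 8 held kidney transcripts, with summed proximal tubule markers at 121.2 CPM against a group median of 10.65. The kidney study A obese vehicle replicate 4 held skeletal muscle transcripts (summed markers 1188 CPM, group median 53.12). Both stayed in the fits below that left out libraries holding other tissue. All 8 proximal tubule markers were detected in kidney, with Lrp2 at 915.4 CPM or more in every library, and the heart muscle marker Actc1 was at 4462 CPM or more in every heart library. Levels below are counts per 1000000 counts of the library (CPM), scaled within each organ, and a change is a log2 fold change ± its standard error; a gene is called changed where edgeR's quasi-likelihood test gave an adjusted p under 0.05 over all genes tested. 

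In kidney, obese against lean rats, 4 of the 7 genes were called (2 higher, 2 lower), where 32.0% of all 14230 genes tested were called (16.9% higher, 15.2% lower). With BT2 against vehicle 1 of 7 was called (5.67% of all genes), with empagliflozin 0 of 7 (1.06% of all genes, 149 genes; 2644 genes had an unadjusted p under 0.05 and DESeq2 called 614), with the combination against vehicle 4 of 7 (32.1%), and with the combination against empagliflozin 4 of 7 (31.7%). In heart, where Rbp4 was too low to test, 2 of 6 genes were called in obese against lean rats (5.36% of all genes), 0 of 6 with BT2 (0.0558%, 7 genes; 986 had an unadjusted p under 0.05 and DESeq2 called 95), 0 of 6 with empagliflozin (0.107%, 13 genes; 1121 had an unadjusted p under 0.05 and DESeq2 called 70), 1 of 6 with the combination against vehicle (5.13%) and 1 of 6 with the combination against empagliflozin (0.0249%, 3 genes). Of the members, 0 with empagliflozin in kidney, 1 with BT2 in heart (Cyp26b1) and 1 with empagliflozin in heart (Aldh1a1) had an unadjusted p under 0.05, and DESeq2 called 0 in each. No count is read as a result about the set, since the genes were chosen on these comparisons. The obese vehicle group of study A enters both the obesity and the BT2 comparison. The vehicle, empagliflozin and combination groups of study B each enter 2 comparisons.

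**Figure D1:**
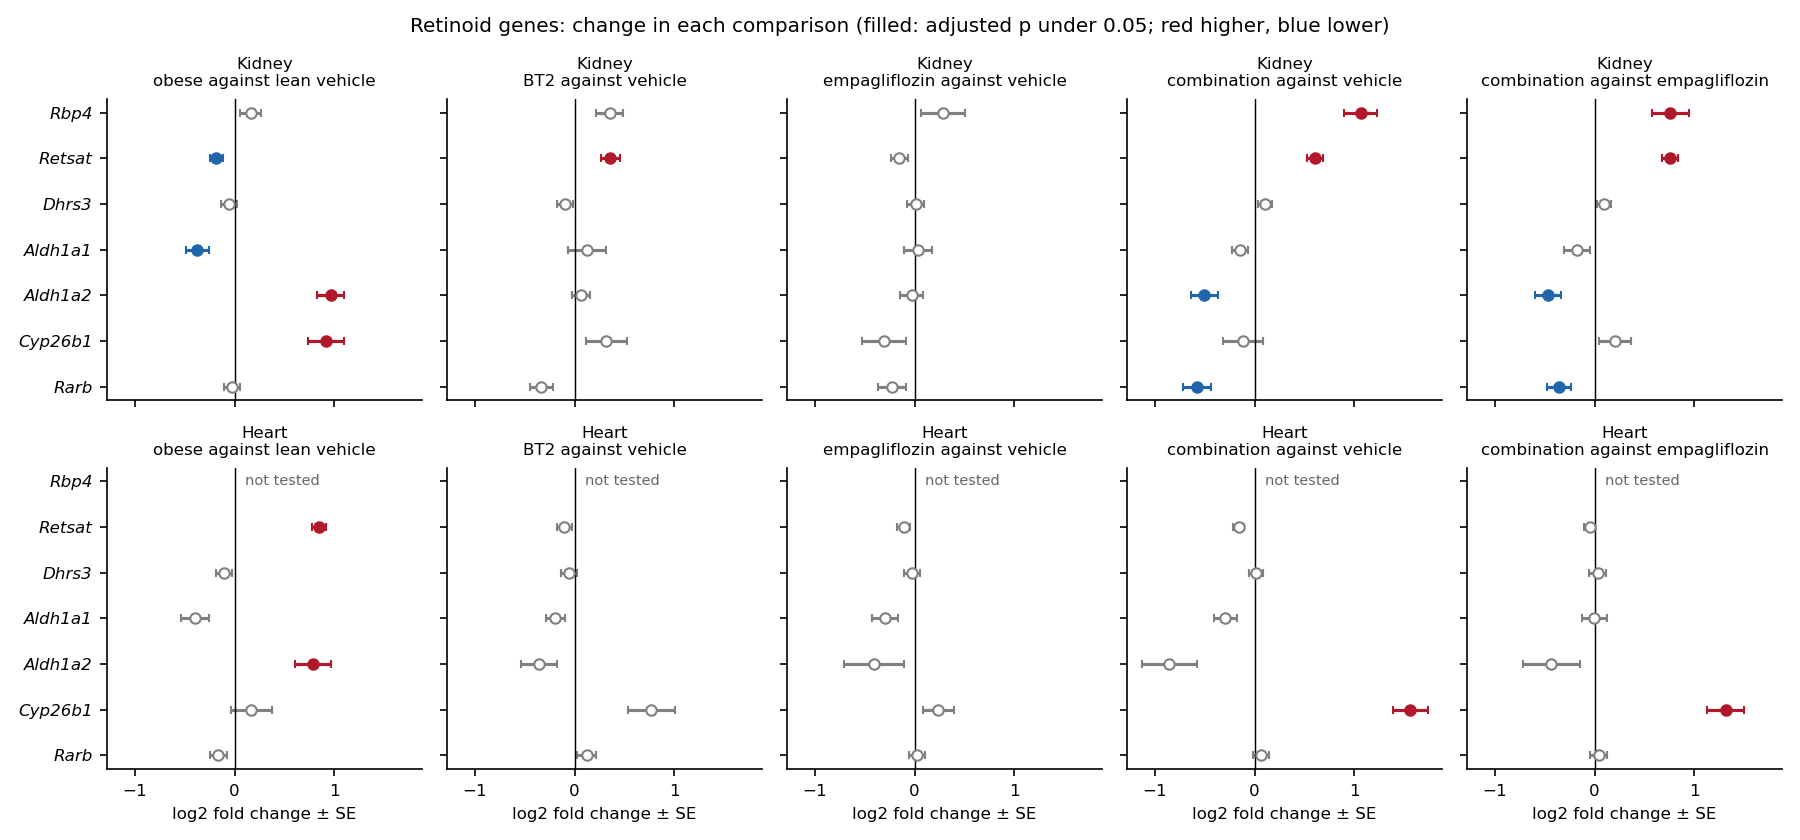
Log2 fold change (x axis, ± SE) of each of the 7 genes in the 5 comparisons of kidney (top) and heart (bottom); filled symbols have an edgeR adjusted p under 0.05. The filled symbols of the combination differ by organ: Rbp4, Retsat, Aldh1a2 and Rarb in kidney, Cyp26b1 in heart, where the log2 fold change is 1.56.

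Rbp4, the plasma carrier of retinol, was detected in kidney and hardly in heart, and its kidney level was highest in the rats on the combination. In study A the lowest, median and highest kidney levels were 27.66, 34.61 and 40.81 CPM in lean rats, 29.74, 33.8 and 57.14 in obese rats on vehicle, and 35.78, 53.64 and 61.25 on BT2 (9 libraries). In study B they were 28.41, 41.55 and 81.2 CPM on vehicle (9 libraries), 25.47, 61.82 and 101.2 on empagliflozin, and 68.54, 91.79 and 142.2 on the combination. Every combination library was above the vehicle median and 7 of 10 were above the highest vehicle library. The empagliflozin group, from 25.47 to 101.2 CPM, spanned the vehicle range and overlapped that of the combination, whose highest library lay above it.
On the combination Rbp4 rose by 1.06 ± 0.17 (edgeR adjusted p = 4.564e-05) against vehicle and by 0.76 ± 0.19 (adjusted p = 0.003464) against empagliflozin. Within plates, the rise against vehicle was 1.02 on plate 1 and 1.09 on plate 2, and the rise against empagliflozin was 1.22 and 0.30. BT2 alone gave 0.35 ± 0.14 (adjusted p = 0.1254; 0.71 on plate 1 and 0.05 on plate 2), with all 9 libraries above the vehicle median. Empagliflozin alone gave 0.28 ± 0.22 (adjusted p = 0.5087), and the sign differed by plate: -0.20 on plate 1 and 0.79 on plate 2, neither called. On plate 2 all 5 empagliflozin kidneys, from 63.75 to 101.2 CPM, were above every vehicle kidney of that plate, the highest of which was at 55.52 CPM. Obese against lean rats differed by 0.16 ± 0.11 (adjusted p = 0.2615), with -0.13 on plate 1 and 0.46 on plate 2.
Liver, the main source of circulating retinol-binding protein, is a tissue whose transcripts appeared in this group. The summed level of 7 liver markers ran from 308.8 to 1595 CPM on the combination and from 384.5 to 487.6 on vehicle, with medians of 425.2 and 421. This sum does not measure liver tissue alone. Tf and Fga were found in every kidney library (medians 273.8 and 66.33 CPM), while the median of Alb was 0.3777 CPM. The library with the highest Rbp4 (142.2 CPM) also had the highest Alb (834 CPM), and the next highest in Alb (265.6 CPM) had the lowest Rbp4 of the group (68.54 CPM). In the 6 combination libraries with Alb under 2 CPM, Rbp4 lay between 78.61 and 110.4 CPM. Without the libraries that held transcripts of another tissue or were shallow, the rise was 1.01 against vehicle (adjusted p = 0.001) and 0.60 against empagliflozin (adjusted p = 0.035). The part of liver tissue in the Rbp4 rise was not tested.
In heart, Rbp4 had a median of 2 counts per library and none in 13 of 60 libraries, and group means ran from 0.1701 to 0.3125 CPM. Its highest heart level, 1.065 CPM, was in lean replicate 8, the heart library with the most proximal tubule transcripts (a summed 121.2 CPM against a group median of 10.65).

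**Figure D2:**
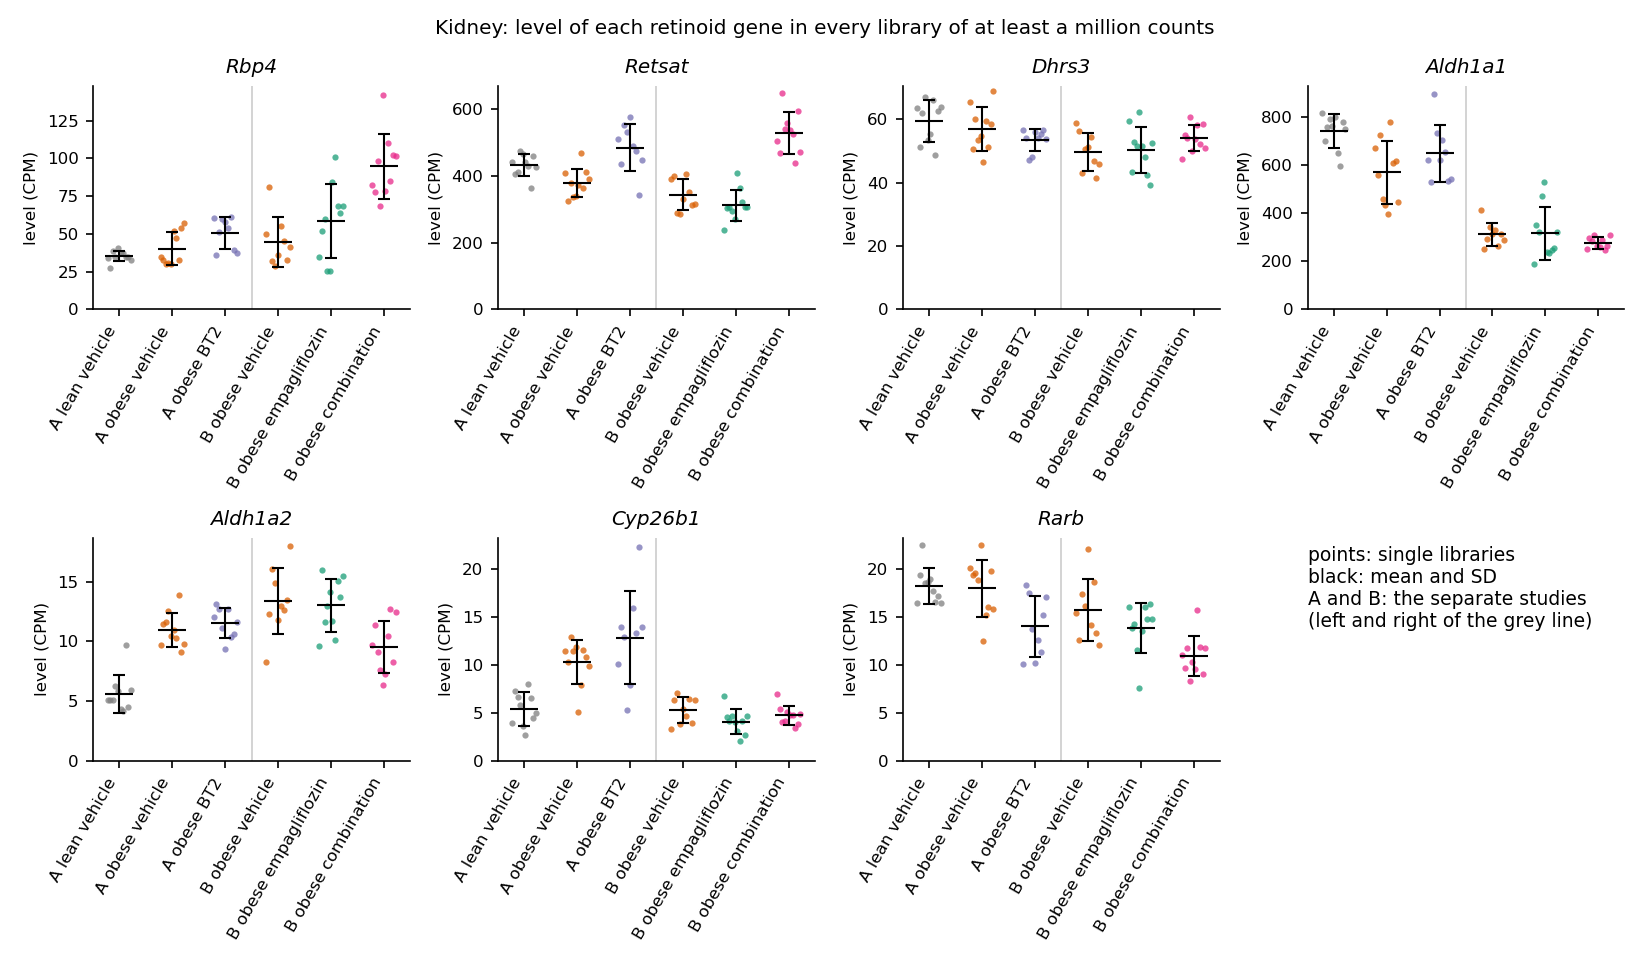
Kidney level (CPM, y axis) of each gene in the single libraries of the 6 groups, with group mean and SD in black; studies A and B are separated by the grey line. Rbp4 and Retsat are highest on the combination, Aldh1a2 is lowest in lean rats, and Aldh1a1 is lower in study B than in study A.

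Retsat encodes retinol saturase, which turns retinol into dihydroretinol and is also known from work on fat cells. With obesity it rose in heart and fell in kidney. Heart levels were 108, 147 and 153.3 CPM (lowest, median, highest) in lean rats and 217.7, 255.8 and 293.7 in obese rats on vehicle. The heart groups did not overlap, and the change was 0.84 ± 0.07 (edgeR adjusted p = 4.115e-08; 0.77 on plate 1 and 0.91 on plate 2).
Kidney levels were 364.3, 437 and 474.3 CPM in lean and 325.2, 376 and 467.7 in obese rats. Here 9 of 10 obese libraries were below the lean median, and Retsat fell by 0.18 ± 0.07 (adjusted p = 0.03762), with -0.28 on plate 1 and -0.08 on plate 2. The summed proximal tubule markers had medians of 14200 CPM in lean and 9547 in obese kidneys, and their part in this fall was not tested. The difference between the organs' changes was itself 1.04 ± 0.10 on the log2 scale (adjusted p = 3.646e-09; 14.0% of all genes were called in this test, and of the 7 genes only Retsat). The labels do not say which heart and kidney came from the same rat, so the organs entered this test as unrelated samples.
Treatment changed Retsat in kidney. On BT2 its kidney levels were 343.5, 491.4 and 577 CPM, with 6 of 9 libraries above the highest vehicle library, and it rose by 0.36 ± 0.09 (adjusted p = 0.02694; 0.51 on plate 1 and 0.23 on plate 2, neither called within a plate). In study B it was 287.2, 331.6 and 407.1 CPM on vehicle, 238, 306.4 and 410.3 on empagliflozin, and 437.9, 533 and 649.7 on the combination.
All 10 combination libraries were above every library of both other groups. The rise was 0.61 ± 0.08 against vehicle (adjusted p = 5.748e-06; 0.66 and 0.54 on plates 1 and 2) and 0.76 ± 0.08 against empagliflozin (adjusted p = 7.932e-07; 0.93 and 0.58). Empagliflozin alone gave -0.15 ± 0.08 (adjusted p = 0.3366).
Beside these rises, 1 of 8 proximal tubule markers was called lower and 2 of 4 principal cell markers higher with BT2. The summed proximal tubule levels ran from 4687 to 8315 CPM on BT2 and from 5931 to 11150 on vehicle, and the principal cell levels from 355.7 to 555.1 and from 230.6 to 484.2. On the combination against vehicle, 5 of 8 proximal tubule markers were called lower and 1 higher, and 3 of 4 principal cell markers higher. The summed levels there were 3547 to 5292 against 4599 to 6768 CPM for the proximal tubule and 792.2 to 1553 against 552.7 to 909 for principal cells. No marker of either list was at 0 in every library of these groups, and their part in the rises was not tested.
The change with BT2 was larger in the presence of empagliflozin by 0.40 ± 0.12 (adjusted p = 0.03838; 7.94% of all genes were called), a test in which empagliflozin and the study cannot be told apart. It was 0.38 with adjusted p = 0.072 without the libraries holding other tissue, and 0.39 with adjusted p = 0.057 without the plate term.
In heart, edgeR called no treatment's change of Retsat: the changes were -0.10 ± 0.07 with BT2 (adjusted p = 0.8536), -0.11 ± 0.07 with empagliflozin (adjusted p = 0.6427) and -0.16 ± 0.05 with the combination (adjusted p = 0.0924, with all 10 libraries below the vehicle median of 226.5 CPM). DESeq2 called the combination's change, at -0.16 (adjusted p = 0.03571), and the authors' deposited table gives -0.14 with an adjusted p of 0.03391. The combination's change in heart was lower than that in kidney by -0.76 ± 0.10 (adjusted p = 1.212e-06; 16.2% of all genes were called). In order of mean kidney level the groups ran from the combination (529.8 ± 63.33 CPM, SD, n = 10) through BT2 (485.1 ± 70.59, n = 9), lean (432.7 ± 32.91, n = 10), study A vehicle (379.7 ± 42.53, n = 10) and study B vehicle (343.5 ± 46.88, n = 9) to empagliflozin (312.1 ± 47.15, n = 10). The ranges of neighbours in that order overlapped, and the groups of different studies were not tested against each other.

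Dhrs3, the retinaldehyde reductase that returns retinaldehyde to retinol, was the steadiest of these genes. Its kidney group means ran from 49.74 ± 5.989 CPM (SD, n = 9, study B vehicle) to 59.44 ± 6.619 (n = 10, lean) and its heart group means from 25.31 ± 2.656 (n = 10, empagliflozin) to 29.57 ± 4.346 (n = 10, lean). Single kidney libraries lay between 39.21 and 69.03 CPM, and single heart libraries between 17.99 and 35.47 CPM. Its changes in the 10 comparisons lay between -0.11 and 0.11 on the log2 scale with standard errors of at most 0.0859, and none was called in edgeR, with adjusted p from 0.2496 to 0.9726. Lean rats had the highest mean in both organs, and the groups overlapped in every comparison.

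Aldh1a1, a retinaldehyde dehydrogenase abundant in adult tissues, fell in obese kidney and had lower kidney levels in study B than in study A. Its kidney levels were 598, 761.9 and 818.4 CPM in lean rats and 395.1, 585.6 and 778.3 in obese rats of study A. Obese libraries were below the lean median in 9 of 10 cases, the ranges overlapped, and the change was -0.37 ± 0.11 (edgeR adjusted p = 0.01603; -0.41 on plate 1 and -0.33 on plate 2). The summed proximal tubule markers had medians of 14200 CPM in lean and 9547 in these obese kidneys. Their part in the fall of Aldh1a1 was not tested.
For kidney Aldh1a1, BT2 gave 531.4, 623.4 and 894.2 CPM and a change of 0.13 ± 0.19 (adjusted p = 0.7068). In study B, kidney Aldh1a1 was 250.6, 314.5 and 414.3 CPM on vehicle, 187.8, 287.7 and 530.6 on empagliflozin, and 245.3, 274.6 and 311 on the combination; none of the 3 comparisons among them was called, with changes of 0.04 ± 0.14, -0.14 ± 0.08 and -0.18 ± 0.13.
The obese vehicle groups of the 2 studies carry the same genotype and treatment labels, and their mean kidney levels were 569.7 ± 132.9 CPM (SD, n = 10) and 312.4 ± 48.35 (n = 9). The summed level of 5 podocyte markers differed the same way, with medians of 344.5 CPM in study A vehicle and 119.6 in study B vehicle, as did that of 8 proximal tubule markers (9547 and 5743 CPM). The studies were set side by side and not tested, and the part of these cell types in the gap was not tested.
In heart Aldh1a1 was 22.99, 37.03 and 62.81 CPM in lean and 25.48, 30.24 and 35.85 in obese rats. Lean replicate 8, the heart library with kidney transcripts, was at 56.19 CPM. All 10 obese libraries were below the lean median, but the change of -0.40 ± 0.14 was not called (adjusted p = 0.1146; -0.13 on plate 1 and -0.67 on plate 2). EdgeR called no treatment's change of Aldh1a1 in heart. The changes were -0.19 ± 0.10 for BT2, -0.29 ± 0.13 for empagliflozin and -0.29 ± 0.11 for the combination. Their edgeR adjusted p were 0.6638, 0.4917 and 0.1341, and their unadjusted p 0.058, 0.031 and 0.015. Kidney levels of Aldh1a1 were 18.55 times those of heart in lean rats and 10.81 to 24.55 times in the obese groups.

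Aldh1a2, the dehydrogenase that makes most retinoic acid in the embryo and in mesothelial and stromal cells, rose with obesity in both organs. Kidney levels were 4.148, 5.106 and 9.68 CPM in lean rats and 9.112, 10.72 and 13.88 in obese rats on vehicle. All obese libraries were above every lean library except replicate 8, the one holding muscle transcripts, which alone reached the obese range. That library also had the highest summed macrophage markers (774.2 CPM, group median 377.8) and tubule injury markers (3450 CPM, group median 583.1) of the lean kidneys. The change was 0.96 ± 0.13 (edgeR adjusted p = 1.817e-05; 1.04 and 0.90 on plates 1 and 2), and 1.10 without that library and the shallow ones (adjusted p = 1.708e-08).
Heart levels were far lower, at 0.6169, 1.038 and 1.565 CPM in lean and 1.39, 1.833 and 2.839 in obese rats, resting on a median of 19 counts per library. All 10 obese hearts were above the lean median, and the change was 0.79 ± 0.18 (adjusted p = 0.009293; 0.84 and 0.73 on plates 1 and 2).
BT2 alone changed kidney Aldh1a2 by 0.07 ± 0.09 (adjusted p = 0.6671) and empagliflozin alone by -0.03 ± 0.12 (adjusted p = 0.9331). In study B it was 8.248, 12.96 and 18.01 CPM on vehicle, 9.621, 13.34 and 16.01 on empagliflozin, and 6.35, 9.414 and 12.7 on the combination. All 10 combination libraries were below the medians of both other groups.
It fell by 0.50 ± 0.14 against vehicle (adjusted p = 0.006314; -0.54 and -0.47 on plates 1 and 2) and by 0.47 ± 0.13 against empagliflozin (adjusted p = 0.007697; -0.56 and -0.38). Without the libraries that held other tissue or were shallow, neither was called: -0.42 (adjusted p = 0.078) and -0.38 (adjusted p = 0.082). The change with BT2 was lower in the presence of empagliflozin by -0.53 ± 0.16 (adjusted p = 0.03333), and this too was not called without those libraries (-0.43, adjusted p = 0.097).
In heart the combination gave -0.85 ± 0.28 (adjusted p = 0.07633), with 9 of 10 libraries below the vehicle median of 2.17 CPM; DESeq2 gave -0.86 (adjusted p = 0.038), and a fit of all heart groups together gave -0.86 (adjusted p = 0.041). The value was -1.27 on plate 1 and -0.48 on plate 2, neither called. The 3 highest vehicle hearts, replicates 4, 5 and 7 (3.474, 3.778 and 3.588 CPM), and the highest combination heart, replicate 6 (2.671 CPM), were among the libraries that stood apart in atrial transcripts. Without all the hearts that stood apart, the change was -0.90 (adjusted p = 0.088).
In kidney several marker lists moved alongside. From lean to obese, 4 of 6 macrophage markers, 2 of 6 fibroblast markers and 8 of 8 tubule injury markers tested were called higher; the summed macrophage markers ran from 303.9 to 774.2 CPM in lean and from 848.6 to 1162 in obese rats, and the tubule injury markers from 451.6 to 3450 and from 3712 to 8485. On the combination, 4 of 5 macrophage, 4 of 5 fibroblast and 6 of 8 injury markers tested were called lower than on vehicle, with summed macrophage levels of 307.3 to 490.9 against 504.6 to 1076 CPM and fibroblast levels of 190.7 to 269.3 against 212.4 to 453.8 CPM. Of 3 mesothelium markers tested, 1 was called higher and 1 lower in obese kidney and 0 on the combination, and the summed list had medians of 14.3 CPM in lean, 14.35 in obese, 16.49 on study B vehicle and 12.25 on the combination. The highest lean values of the macrophage and tubule injury sums were those of lean replicate 8. The part of any of these cell types in the result was not tested. In whole-tissue RNA, fewer cells of a type and less RNA per cell cannot be told apart.

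Cyp26b1 encodes a cytochrome P450 that breaks down retinoic acid. It was the gene of this set with the largest treatment difference, and that difference was in heart. Heart levels in study B were 2.739, 4.117 and 6.253 CPM on vehicle, 3.087, 5.424 and 7.379 on empagliflozin, and 6.86, 12.53 and 23.44 on the combination. Every combination heart was above every vehicle heart, and 9 of 10 were above the highest empagliflozin heart.
The means were 4.334 ± 1.111 CPM (SD, n = 10), 5.276 ± 1.169 (n = 10) and 12.84 ± 4.784 (n = 10). The change was 1.56 ± 0.17 against vehicle (edgeR adjusted p = 1.2e-05; 1.498 and 1.600 on plates 1 and 2). Against empagliflozin it was 1.31 ± 0.19 (adjusted p = 0.003612; 0.90 and 1.71 on plates 1 and 2, the latter with adjusted p = 0.084).
In that last comparison only 3 of 12049 heart genes were called, Cyp26b1, Ptgr1 and Gstz1, where 980 had an unadjusted p under 0.05 and DESeq2 called 60. Empagliflozin alone gave 0.24 ± 0.16 (adjusted p = 0.6895; 0.60 on plate 1 and -0.11 on plate 2). Without the hearts that stood apart in atrial or skeletal muscle transcripts the changes of the combination were 1.77 (adjusted p = 8.316e-05) against vehicle and 1.20 (adjusted p = 0.014) against empagliflozin. In the authors' deposited table the combination's log2 fold change against vehicle was 1.52.
BT2 alone gave a difference in heart that was not called and varied between plates. Heart levels in study A were 3.78, 5.927 and 7.628 CPM in lean rats, 3.599, 6.247 and 15.12 in obese rats on vehicle, and 6.169, 11.41 and 19.66 on BT2. Of the BT2 hearts 9 of 10 were above the vehicle median, but only 2 were above the highest vehicle heart, replicate 3 at 15.12 CPM, and the change of 0.77 ± 0.23 was not called (adjusted p = 0.2663; 0.19 on plate 1 and 1.36 on plate 2, neither called). The difference between BT2's change with and without empagliflozin was 0.53 ± 0.31 in heart and was not called (adjusted p = 0.9996); no gene was called in that test, where 453 had an unadjusted p under 0.05 and DESeq2 called 0.
In kidney, obese against lean rats was called and the combination was not. In heart, obese against lean rats gave 0.17 ± 0.20 (edgeR adjusted p = 0.7215). The heart change minus the kidney change was not called for obesity (-0.74 ± 0.28, adjusted p = 0.07354, called in 3 of 7 alternative fits). It was not called for BT2 either (0.45 ± 0.33, adjusted p = 0.5893). Kidney levels were 2.729, 5.397 and 8.059 CPM in lean and 5.098, 11.12 and 12.89 in obese rats, with 8 of 10 obese libraries above the highest lean one. The change was 0.91 ± 0.18 (adjusted p = 0.0005455; 1.08 on plate 1 and 0.76 on plate 2). BT2 gave 5.282, 13.3 and 22.31 CPM and a change of 0.32 ± 0.20 (adjusted p = 0.34; -0.13 on plate 1 and 0.71 on plate 2).
In study B, kidney Cyp26b1 was 3.321, 5.461 and 7.04 CPM on vehicle, 2.074, 4.163 and 6.791 on empagliflozin and 3.375, 4.82 and 7.005 on the combination. These groups overlapped throughout, and changes of -0.31 ± 0.22, -0.12 ± 0.20 and 0.20 ± 0.16 were not called. The obese vehicle kidneys of the 2 studies again stood apart, at 10.34 ± 2.27 CPM (SD, n = 10) in study A and 5.277 ± 1.377 (n = 9) in study B, beside a lean mean of 5.413 ± 1.731 (n = 10) in study A, the only study with lean rats.
The combination's change was larger in heart than in kidney by 1.70 ± 0.26 (adjusted p = 1.484e-05). Heart and kidney were also set against each other for BT2 (0.528% of all genes called) and for empagliflozin (1.39%), with 0 of the 7 genes called by edgeR in either test; 3 and 1 of the 7 had an unadjusted p under 0.05, and DESeq2 called 1 (Retsat, -0.45 for BT2) and 0. Beside it in heart, 3 of 4 skeletal muscle markers and 4 of 6 heart muscle markers tested were called higher on the combination than on vehicle, with summed skeletal muscle levels of 7.952 to 1535 CPM against 5.249 to 16.85 CPM, while 0 of 6 macrophage, 0 of 6 fibroblast and 0 of 6 endothelial markers were called. The Cyp26b1 changes without the hearts that stood apart are given above for both comparisons of the combination. The part of these tissues in the Cyp26b1 difference was not tested.

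**Figure D3:**
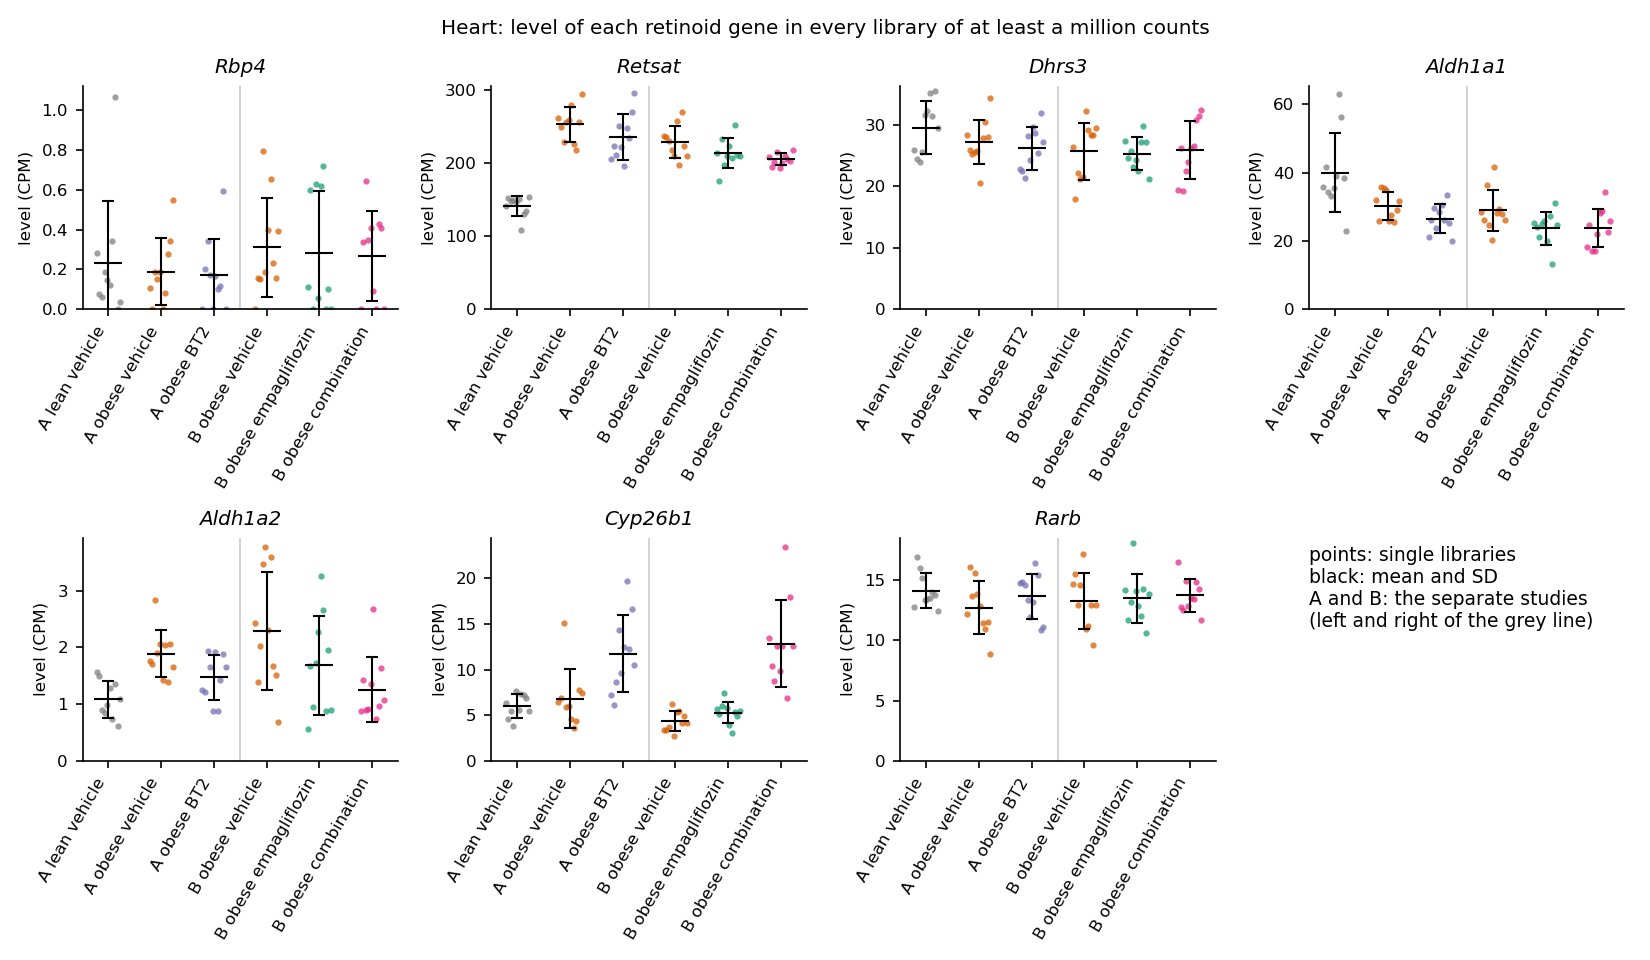
Heart level (CPM, y axis) of each gene in the single libraries of the 6 groups, with group mean and SD in black. Retsat separates lean from obese hearts, and Cyp26b1 on the combination lies between 6.86 and 23.44 CPM, above every vehicle heart of study B.

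Rarb, the retinoic acid receptor beta whose promoter pair is shown above, fell in kidney on the combination. Kidney levels in study B were 12.01, 15.42 and 22.06 CPM on vehicle, 7.586, 14.5 and 16.36 on empagliflozin and 8.312, 10.65 and 15.7 on the combination. Of the combination kidneys, 9 of 10 were below the lowest of the vehicle kidneys, and replicate 7, a library with heart muscle transcripts, was the highest of its group. Rarb fell by 0.58 ± 0.14 against vehicle (edgeR adjusted p = 0.00243). That change was -0.73 on plate 1 and -0.43 on plate 2, where it was not called (adjusted p = 0.2121). Against empagliflozin Rarb fell by 0.36 ± 0.12 (adjusted p = 0.03119), with -0.34 and -0.38 on plates 1 and 2, neither called within a plate. Summed fibroblast markers had medians of 224.2 CPM on the combination and 327.6 on vehicle. Macrophage markers had 392.9 and 795.6, and endothelial markers 270.7 and 266.8. The part of these cell types in the fall of Rarb was not tested.
With BT2 alone, kidney levels of 10.06, 13.69 and 18.35 CPM stood beside 12.44, 19.1 and 22.46 on vehicle, and all 9 BT2 libraries were below the vehicle median. That change of -0.33 ± 0.12 was not called (adjusted p = 0.09616). Empagliflozin alone gave -0.22 ± 0.14 (adjusted p = 0.4005), and obese against lean rats gave -0.02 ± 0.08 (adjusted p = 0.8613), with lean kidneys at 16.38, 18.06 and 22.5 CPM.
In heart Rarb held group means from 12.69 ± 2.188 CPM (SD, n = 10, study A vehicle) to 14.12 ± 1.452 (n = 10, lean), and none of its 5 heart comparisons was called. The combination's change was higher in heart than in kidney by 0.64 ± 0.16 (adjusted p = 0.003688). The order of the kidney groups by mean, from lean (18.19 ± 1.862 CPM, SD, n = 10) through study A vehicle (17.95 ± 2.985, n = 10), study B vehicle (15.73 ± 3.226, n = 9), BT2 (14 ± 3.192, n = 9) and empagliflozin (13.86 ± 2.615, n = 10) to the combination (10.89 ± 2.094, n = 10), had overlapping ranges between all neighbours. On the combination Rarb was thus called lower in kidney and Cyp26b1 higher in heart, with no call for Cyp26b1 in kidney or for Rarb in heart.

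The rest of the pathway was read from a list of 67 further genes in 8 roles, of which 59 were matched by symbol. In kidney, obese against lean rats, 44 passed the low-count filter, 6 were called higher and 11 lower, where 16.9% of all genes were called higher and 15.2% lower. The median change of the 44 was -0.09 against -0.02 over all genes. Without the lean replicate 8 and the shallow libraries, 10 were called higher and 11 lower, Dhrs7, Lgals1, Bco1 and Lipe being added. Of the enzymes that interconvert retinol and retinaldehyde, those called with all libraries in the fit were lower: Rdh16 by -0.65 ± 0.12 (adjusted p = 0.0004263), Dhrs4 by -0.32 ± 0.08 (adjusted p = 0.002723), Adh5 by -0.27 ± 0.07 and Akr1b10 by -0.52 ± 0.15. Dhrs7, of the same role, had a difference of the other sign, 0.29 ± 0.12 (not called, adjusted p = 0.07096) and 0.42 without those libraries (called higher, adjusted p = 0.0002708).
Aldh8a1, a further retinaldehyde dehydrogenase of the proximal tubule, also fell, by 0.56 ± 0.11 (adjusted p = 0.0004066), as did Lrp2, the megalin receptor that takes up filtered retinol-binding protein, by 0.60 ± 0.13 (adjusted p = 0.0009419). Lrp2 kidney levels were 1474, 3364 and 4116 CPM in lean and 1478, 2056 and 2699 in obese rats, and all 10 obese libraries were below the lean median. Alongside, 6 of 8 proximal tubule markers tested, Lrp2 among them, were called lower, and the summed list ran from 7586 to 15260 CPM in lean and from 5931 to 11150 in obese rats; its part in the fall of these enzymes was not tested.
Among genes called higher were Lrat, which esterifies retinol for storage (1.84 ± 0.40, adjusted p = 0.001393, from a mean of 0.5413 to 2.156 CPM), and the responsive genes Gprc5a (1.10 ± 0.20, adjusted p = 0.0002146), Rarres2, which encodes chemerin (0.64 ± 0.13, adjusted p = 0.0006002), and Rai14 (0.38 ± 0.07). Rarres1 was called lower (-0.50 ± 0.10). The retinoid X receptor gene Rxra, partner of the RAR proteins, was called lower by -0.42 ± 0.12 (adjusted p = 0.01115), as was the corepressor gene Ncor1 (-0.25 ± 0.08, adjusted p = 0.02303); the other 7 of the 9 receptors and corepressors, Rarb among them, were not called.

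In kidney on the combination against vehicle, 43 further genes were tested, 8 called higher and 11 lower (32.1% of all genes were called in either direction), with a median change of 0.00 against 0.01 over all genes. Without the libraries holding other tissue, 7 were called higher and 8 lower of 44. Tgm2, a transglutaminase induced by retinoic acid, fell by 0.76 ± 0.07 (edgeR adjusted p = 3.738e-08), from 223.4, 287.7 and 324.2 CPM on vehicle to 147.2, 165.1 and 188.7, without overlap. Of the 14 responsive genes tested, counting Rarb and Dhrs3, 7 were called lower and 1, Rarres1 (0.41 ± 0.11), higher, with a median of -0.23, where 14.8% of all genes were called lower and 17.3% higher; the list was chosen with results known, and nothing is read from its count.
The retinoic acid binding proteins Crabp1 and Crabp2 fell by 0.66 ± 0.20 (adjusted p = 0.0161) and 1.07 ± 0.37 (adjusted p = 0.0272). Among the dehydrogenases, Aldh8a1 rose by 0.67 ± 0.10 (adjusted p = 1.29e-05), from 137, 168.2 and 233.6 CPM on vehicle to 248.7, 282.3 and 354.4 with no overlap, while Aldh1a3 fell by 0.97 ± 0.33 (adjusted p = 0.02519; not called, at -1.02 with adjusted p = 0.08886, without the libraries holding other tissue). Rdh16 fell by 1.09 ± 0.16 (adjusted p = 2.094e-05).
Receptor partners moved apart: Rxra rose by 0.51 ± 0.13 (adjusted p = 0.005404) and Rxrg fell by 0.88 ± 0.21 (adjusted p = 0.002099), while the corepressor gene Ncor1 rose by 0.29 ± 0.07. Against empagliflozin 6 of 43 were called higher and 11 lower (31.7% of all genes in either direction), and without the libraries holding other tissue 3 and 8 of 45; Tgm2, Rdh16 and Aldh8a1 were called in the same directions in both fits. In the macrophage, fibroblast and injury lists given above the same kidneys had lower levels, and the part of those cells in these changes was not tested.
The difference between BT2's change with and without empagliflozin was called for genes that included Tgm2 (-0.60 ± 0.13, adjusted p = 0.005105) and Aldh8a1 (0.77 ± 0.17, adjusted p = 0.004927), with the same limit that the study and empagliflozin cannot be told apart.

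**Figure D4:**
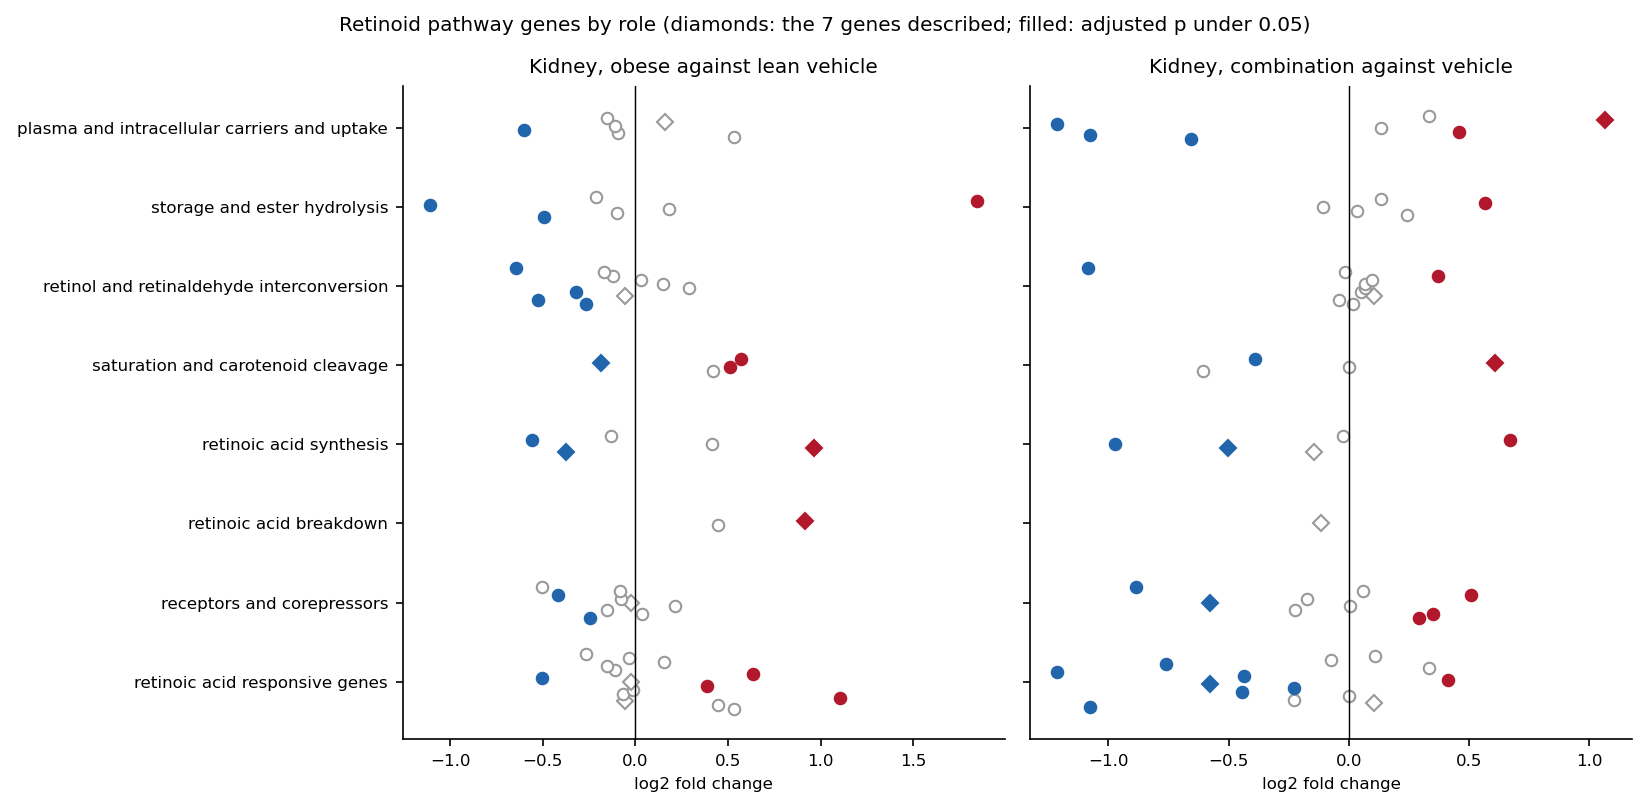
Log2 fold change (x axis) of retinoid pathway genes in kidney by role (y axis), for obese against lean rats (left) and the combination against vehicle (right); diamonds are the 7 genes described, filled symbols have an edgeR adjusted p under 0.05, and genes with 2 roles appear in both rows. On the right, 7 of the 14 responsive genes lie among the filled blue symbols, where 14.8% of all genes were called lower.

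Single treatments had few calls in the list in kidney, as over all genes. With BT2, 1 of 45 further genes was called (5.67% of all genes), Rdh16 at -0.74 ± 0.10 (adjusted p = 0.0001336), and without the shallow libraries 3 were (Rdh16 and Lrp2 lower, Hoxa5 higher). With empagliflozin, 2 of 44 were called, both higher (1.06% of all genes; DESeq2 called 2 higher and 2 lower): Stra6, the cell-surface receptor for retinol-binding protein (0.99 ± 0.18, adjusted p = 0.01217), and Rdh10, which makes retinaldehyde (0.39 ± 0.09, adjusted p = 0.04799; not called, at 0.37 with adjusted p = 0.06017, without the libraries holding other tissue or shallow). Stra6 was at 5.997, 7.786 and 11.49 CPM on vehicle and 10.16, 13.94 and 33.62 on empagliflozin, and at 4.924, 9.676 and 15.05 on the combination. The change on the combination against empagliflozin was -0.65 ± 0.22 (adjusted p = 0.02556).
In heart, obese against lean rats, 5 of 37 further genes were called higher and 1 lower (5.36% of all genes were called in either direction). Those higher were Rbp7, a cellular retinol-binding protein known from endothelium and fat (1.15 ± 0.17, adjusted p = 0.0001121), Lgals1 (0.61 ± 0.09), Tgm2 (0.34 ± 0.07), Dhrs4 (0.34 ± 0.08) and Lipe (0.42 ± 0.10), and Lpl was lower (-0.53 ± 0.09). Of 6 endothelial markers 2 were called lower and of 6 macrophage markers 2 higher in the same hearts. With the combination, Lpl (0.48 ± 0.09), Dgat1 (0.27 ± 0.05) and Ttr (0.41 ± 0.11) were called higher of 35 (5.13% of all genes were called in either direction). Without the hearts that stood apart 0 were called, and the values of Lpl, Dgat1 and Ttr were 0.47, 0.21 and 0.37. By edgeR, no further gene was called in heart with BT2 (of 37, 0.0558% of all genes) or with empagliflozin (of 36, 0.107%). None was called with the combination against empagliflozin either (of 35, 0.0249%).

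The genes whose levels ran most alike were named by Spearman's rho over the libraries of an organ, as a description in which all groups, both studies and the library depth are shared. In kidney (58 libraries) Retsat ran most like Acot1 (0.94), Aco1 (0.92) and Lonp2 (0.91), and Aldh1a1 most like Amt, Ptcd3 and Slc22a8 (0.93 each). Rbp4 ran most like Adgrv1 (0.86, followed by Tyro3 and Chdh), Aldh1a2 like Axl (0.81, then Fblim1 and Adamts4), Rarb like Igsf10 (0.76), Cyp26b1 like Hmgcs1 (0.73) and Dhrs3 like Ddn (0.66). In heart (60 libraries) Retsat ran most like Decr1 (0.89), with Pik3c2g (0.86) also among the closest, Aldh1a1 like Dcn (0.84), Dhrs3 like Csrp1 (0.84), Aldh1a2 like Gpc3 (0.65), Rarb like Fam172a (0.64) and Cyp26b1 like Ptgr1 (0.60), a gene that was called beside it on the combination against empagliflozin. Among the 7 genes themselves the lowest kidney values were -0.57 for Aldh1a2 with Dhrs3 and for Rbp4 with Rarb, and that of Retsat with Aldh1a2 was -0.53.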

How the data were processed

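Poly-A RNA of 120 libraries was read in paired ends. Per the submitters' processing notes, the tools include STAR 2.7.3a, Salmon 1.5.2, FastQC 0.11.9, MultiQC 1.11, Picard and DESeq2 1.34.0, with genome build mRatBN7.2. The authors deposited expected counts per gene (6.61% of values not whole), scaled counts used here only as a check (signal, deposited by the authors), and tables of their own comparisons with log2 fold changes and p-values, named as the authors' deposited table where printed. Repeat runs of 43 libraries were summed, and counts were rounded; 82 columns that matched no sample were not used.

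Genes passing filterByExpr were tested by edgeR 4.0.16 (R 4.3.3) with TMM scaling, a quasi-likelihood F test and the plate (replicates 1 to 5 or 6 to 10) as covariate. P-values were Benjamini-Hochberg adjusted over all genes, and the standard error is the log2 fold change over the root of F. The script was tested on simulated data. CPM used the TMM factors of all 60 libraries of an organ; 2 kidney libraries under 1000000 counts were left out of levels. Likeness used log2 CPM with a pseudocount of 0.5. The members and gene lists were chosen with earlier results of these data known. Named are the 7 genes, up to 4 called genes per role with the smallest adjusted p, and the 3 most alike genes. Some genes that this rule picks are not reported here, though counts over the lists include them. Alternatives were DESeq2 1.42.0, its size factors, no filter, no plate term, a replicate block, all groups in one fit, single plates, and leaving out shallow libraries or those holding other tissue. Nothing says that the libraries of a group came from separate litters, so p-values measure only the spread between them.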

Additional observations from a re-analysis of the deposited data

Results flagged for a closer look

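Of 84 sets of 10 or 9 libraries (7 genes, 2 organs, 6 groups), 9 held a library far from the others of its group by Dixon's 95% criterion, which chance gives in about 1 of 20. In kidney these were Aldh1a2 in lean replicate 8 (9.68 CPM, the next at 6.277), the library with muscle transcripts, Rarb in lean replicate 3 (22.5, next 19.3), and Rarb in combination replicate 7 (15.7, next 11.89), a library with heart muscle transcripts. In heart they were Cyp26b1 in study A obese vehicle replicate 3 (15.12 CPM, next 7.73), Aldh1a2 in the same library (2.839, next 2.068), Retsat in lean replicate 7 (108, next 130.7), Rbp4 in lean replicate 8 (1.065, next 0.343), Aldh1a2 in combination replicate 6 (2.671, next 1.637) and Rarb in empagliflozin replicate 4 (18.06, next 14.21).

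Of 41 edgeR tests of a difference between effects, 6 passed. Over all genes, 7.94% were called for BT2's change with against without empagliflozin in kidney and 0 in heart. Between heart and kidney, 14.0% of all genes were called for obesity, 0.528% for BT2, 1.39% for empagliflozin and 16.2% for the combination. The count is not read as a result about the 7 genes. The change with BT2 differed with and without empagliflozin in kidney for Retsat (0.40, adjusted p = 0.03838) and Aldh1a2 (-0.53, adjusted p = 0.03333). Between heart and kidney, the obesity change differed for Retsat (1.04, adjusted p = 3.646e-09), and the combination's change differed for Retsat (-0.76, adjusted p = 1.212e-06), Cyp26b1 (1.70, adjusted p = 1.484e-05) and Rarb (0.64, adjusted p = 0.003688).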

How the results depend on the processing

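Of 934 log2 fold changes of the 7 genes under alternatives, 865 kept their direction and side of the threshold, 25 lost a call, 10 gained one and 34 changed sign without a call in either fit; of 168 level means, 4 moved by over 1 SD. In plate 2 alone, called members were 1 in place of 4 for kidney obesity, 2 in place of 4 for the kidney combination against vehicle, 1 in place of 4 against empagliflozin, 1 in place of 2 for heart obesity and 0 in place of 1 for the heart combination against empagliflozin; single plates hold fewer libraries. For BT2 in kidney, Retsat was the 1 called, and 0 were called in plate 1, in plate 2 or with the replicate block. The replicate block also left 1 of 2 in heart obesity, 0 of 1 in the heart combination against empagliflozin, and 2 in place of 1 for the organ difference in obesity. Same-numbered libraries correlated over 0.1 in 5 to 9 of 9 or 10 pairs and best with their own number in 0 to 5, with median correlations of 0.113 to 0.436 against -0.143 to -0.0172 for other numbers; same-numbered libraries also share a plate, and beyond that the numbers were not taken to pair them. For the heart combination against vehicle, DESeq2 called 3 and all groups in one fit 2, in place of 1. For the kidney BT2 difference, 0 of 2 were called without the filter or without libraries holding other tissue, and 1 without the plate term. The organ difference in obesity had 2 in place of 1 without the 3 doubtful libraries or those holding other tissue, and that in BT2 had 1 in place of 0 by DESeq2 and without the 3 libraries. The causes were not tested. Over all genes, calls ranged from 976 to 5423 (kidney obesity), 70 to 1357 (BT2), 2 to 614 (empagliflozin), 1754 to 4861 and 1133 to 4698 (combination against vehicle and empagliflozin), and in heart from 49 to 1068, 0 to 95, 0 to 1236, 6 to 892 and 0 to 60. Depth limits Rbp4 in heart (median 2 counts) and Aldh1a2 in heart (median 19 counts).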
